A study of Homo sapiens with 6 samples.

Results

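The human HOX genes lie in 4 clusters, and the intervals of 4 ChIP-seq peak lists that overlap these clusters were examined in NCI-H526 cells. The windows were set by position on hg19, and the members and lists were chosen with earlier results of these data known. HOXA was taken as chr7:27120000-27250000 (130 kb), HOXB as chr17:46600000-46810000 (210 kb), HOXC as chr12:54330000-54455000 (125 kb) and HOXD as chr2:176950000-177060000 (110 kb), 575 kb in all. They carry 38 HOX genes considered here, 10 in HOXA, 10 in HOXB, 9 in HOXC and 9 in HOXD. Of 271093 distinct intervals in the 4 lists, 383 shared at least 1 bp with a cluster. These were 55 of 45188 LSD1 peaks with DMSO, 59 of 49597 LSD1 peaks with inhibitor, 137 of 81619 H3K4me2 intervals and 132 of 94689 H3K4me1 intervals.

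NCI-H526 is an established small cell lung cancer line, labelled epithelial. LSD1 was mapped in cells given DMSO, the vehicle, and in cells given GSK552, and both histone marks were mapped in the DMSO cells. The protocol names GSK2879552, an LSD1 inhibitor, at 1 µM for 24 hours. It is worded the same way for all 6 samples, DMSO included, and was taken to describe the GSK552 cells. The remaining 2 samples were inputs and were not used here. Each group was 1 library, so no test between conditions was possible and every difference is one between single libraries. The depth of the libraries was not given in the sources used here. As the lists hold no gene levels, the line's identity was not checked against marker genes.

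HOX genes encode homeodomain transcription factors that specify position along the body axis in the embryo. Within a cluster the genes follow one another in the order in which they are used from head to tail, and active and silent stretches of a cluster are known for carrying contrasting histone marks. Methylation of lysine 4 of histone H3 is laid down over active HOX genes by the MLL family of enzymes, and Polycomb complexes hold the silent genes. H3K4me2 marks promoters and enhancers and H3K4me1 is typical of enhancers. LSD1 (KDM1A) is a demethylase that takes both marks as substrates and works in complexes with CoREST.

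From the low to the high coordinate, the genes run from HOXA2 to HOXA13 in HOXA, from HOXB1 to HOXB13 in HOXB, from HOXC13 to HOXC4, HOXC5 and HOXC6 in HOXC and from HOXD13 to HOXD1 in HOXD. This is their order by start coordinate in RefSeq (GRCh38.p14), where HOXC4, HOXC5 and HOXC6 share a start, and it was taken to hold on hg19. The intervals are on hg19 and no position was converted, so no interval can be assigned to a gene, an exon, an intron or a promoter. A HOX promoter from each cluster is shown to illustrate how far they differ in CG dinucleotides. Among the 38 genes, 20 had promoter entries in RefSeq, with 26 distinct sequences. HOXB and HOXC are represented by 1 distinct sequence each, so the pooled values describe mainly HOXA and HOXD. Over the 250 bases before the start site, the ratio of observed to expected CG dinucleotides had a median of 0.886, against 0.556 over 34788 distinct promoters of all genes. The ratio was at least 0.6 in 20 of the 26 HOX sequences (76.9%) and in 47.4% of all promoters. CG reads the same on both strands, and it is in capitals in the following 4 sequences, 1 from each cluster.
HOXA13 promoter, GRCh38.p14 chr7:27200092-27200341, minus strand: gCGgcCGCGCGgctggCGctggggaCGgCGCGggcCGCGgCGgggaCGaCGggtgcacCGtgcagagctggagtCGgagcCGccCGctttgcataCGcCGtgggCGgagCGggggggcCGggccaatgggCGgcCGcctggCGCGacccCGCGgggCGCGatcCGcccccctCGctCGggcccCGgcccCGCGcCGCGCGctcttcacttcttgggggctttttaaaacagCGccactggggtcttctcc
HOXB1 promoter, GRCh38.p14 chr17:48531012-48531261, minus strand: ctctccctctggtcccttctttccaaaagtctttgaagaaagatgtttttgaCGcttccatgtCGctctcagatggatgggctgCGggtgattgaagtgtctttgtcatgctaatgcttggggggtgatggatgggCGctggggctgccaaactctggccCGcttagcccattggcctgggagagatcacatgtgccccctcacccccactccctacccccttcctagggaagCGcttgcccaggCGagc
HOXC4 promoter, GRCh38.p14 chr12:54016638-54016887, plus strand: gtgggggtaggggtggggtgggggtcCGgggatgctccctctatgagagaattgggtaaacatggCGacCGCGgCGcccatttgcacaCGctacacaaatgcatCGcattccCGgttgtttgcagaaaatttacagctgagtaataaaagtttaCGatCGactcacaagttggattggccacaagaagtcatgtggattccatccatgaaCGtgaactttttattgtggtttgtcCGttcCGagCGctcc
HOXD13 promoter, GRCh38.p14 chr2:176092471-176092720, plus strand: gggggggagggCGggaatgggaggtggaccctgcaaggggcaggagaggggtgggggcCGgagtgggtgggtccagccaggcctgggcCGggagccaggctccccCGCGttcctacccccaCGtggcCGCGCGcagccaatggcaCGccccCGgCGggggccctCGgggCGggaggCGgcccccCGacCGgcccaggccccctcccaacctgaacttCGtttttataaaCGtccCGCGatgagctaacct
HOXA13 and HOXD13, which pattern the limbs and the posterior end of the body, held 40 and 21 CG dinucleotides in these windows, at ratios of 1.05 and 0.618. HOXC4 held 14 at a ratio of 0.888, and HOXC5 is listed with the same sequence. HOXB1, which acts in the developing hindbrain, held 7 at a ratio of 0.343.

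H3K4me2 covered the clusters more than either of the other targets did, and it differed widely among them. It lay over 64.2% of HOXC, 44.02% of HOXA, 33.0% of HOXD and 8.28% of HOXB. H3K4me1 kept the same order, with 55.0% of HOXC, 25.3% of HOXA, 17.4% of HOXD and 3.24% of HOXB. HOXC had more sequence under H3K4me1 than any other cluster had under H3K4me2, while 90.9% of HOXB lay under neither mark. Pooled over the 4 clusters, H3K4me2 covered 33.25% and H3K4me1 22.2% of the sequence, against 1.94% and 2.19% of the genome.

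LSD1 covered less sequence and followed a partly different order. With DMSO it lay over 12.8% of HOXD, 10.4% of HOXC, 9.57% of HOXA and 2.17% of HOXB. With inhibitor it lay over 10.9% of HOXD, 10.8% of HOXC, 11.9% of HOXA and 1.995% of HOXB. The pooled coverage was 7.66% with DMSO and 7.86% with inhibitor, against 0.911% and 0.900% of the genome. HOXB was the lowest of the 4 clusters in all 4 lists, with long bare stretches counted in its 210 kb window.

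**Figure D1:**
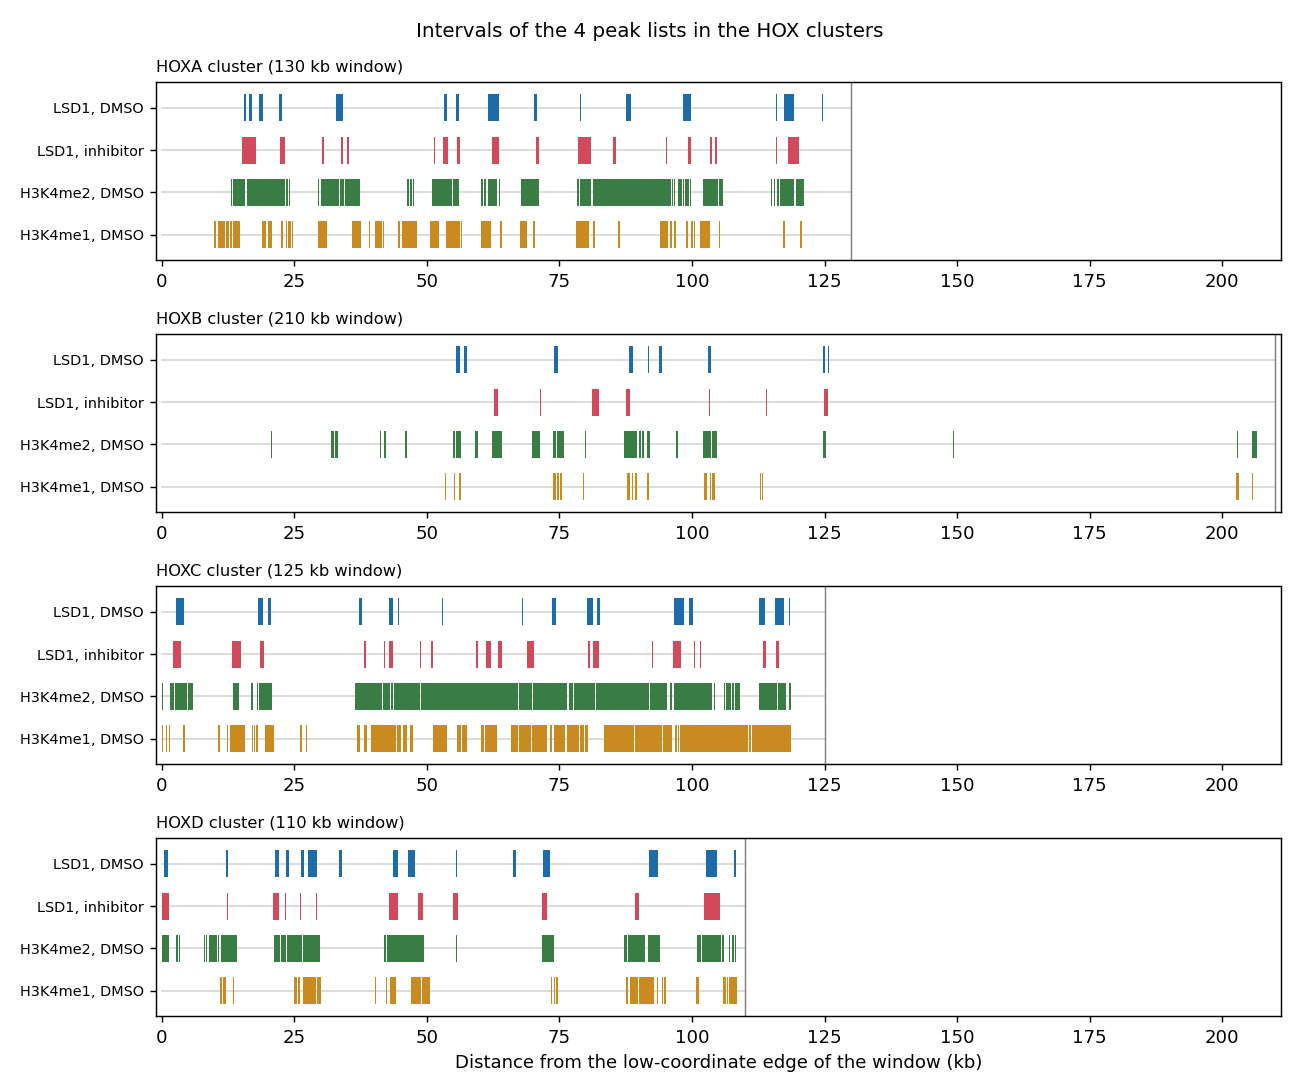
Positions of all intervals of the 4 peak lists in each cluster, as distance in kb from the low-coordinate edge of the window; the grey vertical line marks the end of the window. H3K4me2 forms a nearly unbroken stretch in the middle of HOXC, while HOXB holds no interval over 53.05 kb near its high-coordinate end.

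Equal windows on either side of the clusters were covered far less. Pooled over the 8 flanks, H3K4me2 covered 5.51%, H3K4me1 6.70%, LSD1 with DMSO 1.51% and LSD1 with inhibitor 2.13%. The flank beyond the high-coordinate end of HOXC was the richest in each list, with 19.5% under H3K4me2, 31.4% under H3K4me1, 6.35% under LSD1 with DMSO and 8.80% under LSD1 with inhibitor. The low-coordinate flank of HOXA held no H3K4me2 interval. In one case a flank matched its cluster: H3K4me1 covered 17.7% of the high-coordinate flank of HOXD and 17.4% of HOXD itself.

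**Figure D2:**
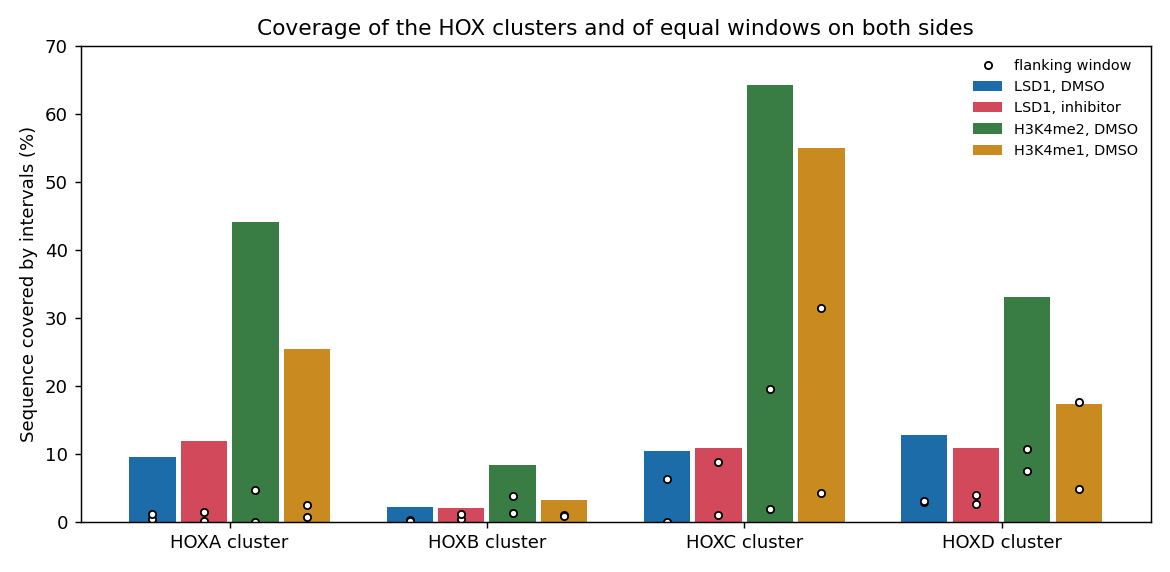
Percent of sequence covered by intervals of each list, for each cluster (bars) and for the equal windows on its low and high sides (circles). The H3K4me2 bars of HOXA, HOXC and HOXD rise to 44.02%, 64.2% and 33.0%, and the highest H3K4me2 flank is at 19.5%.

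The genome was also cut into consecutive tiles of the same length as each cluster. Among all 125 kb tiles, 0.259% were covered by H3K4me2 to at least 20% and 1.13% by H3K4me1 to at least 20%, a level chosen after the values were seen. None of the 24724 tiles outside the clusters reached the H3K4me2 coverage of HOXC, and the highest was at 31.25%. None of the 23777 tiles of 130 kb reached that of HOXA, with a highest value of 33.7%. For HOXD, 6 of 28096 tiles of 110 kb were at or above its H3K4me2 coverage. HOXB was exceeded or equalled by 521 of 14708 tiles of 210 kb. The tiles were cut from the start of each chromosome and can split a marked stretch, while each window spans a whole cluster. Even with tiles on the clusters included, the highest 125 kb tile was at 58.5%, below HOXC itself. These counts therefore favour the clusters.

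Measured in the same way, H3K4me1 and LSD1 set the clusters apart less. The H3K4me1 coverage of HOXC was reached by 3 tiles, that of HOXA by 126, that of HOXD by 489 and that of HOXB by 3056. For LSD1 with DMSO, 64 tiles reached HOXA, 44 reached HOXC, 29 reached HOXD and 1737 reached HOXB. With inhibitor the numbers were 25, 45, 57 and 1967.

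HOXC carried the widest H3K4me2 interval of the whole list. This interval, chr12:54378887-54397264, was 18378 bp wide, with 56 summits, a fold enrichment of 20.8 over the caller's background and a −log10 q of 74.8, which placed it at rank 315 by score. Fold and −log10 q are the peak caller's values as the authors deposited them. The next widest in HOXC, chr12:54411913-54419058 (7146 bp, fold 17.2) and chr12:54426597-54433343 (6747 bp, fold 15.01), ranked 41 and 54 by width in the list. Intervals less than 1 kb apart were joined to see the extent of this stretch. The joined H3K4me2 stretch ran from 54366428 to 54434317, 67.9 kb, and consisted of 18 intervals that filled 94.85% of it. It held 10 LSD1 peaks with DMSO and 16 with inhibitor.

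The 3 widest H3K4me1 intervals of HOXC lay toward the high-coordinate end of the cluster. The widest and highest-scoring interval, chr12:54427685-54440552, was 12868 bp wide, with a fold of 19.3 and a −log10 q of 67.5, and ranked 18 by width and 279 by score of the 94689 intervals. The next widest, chr12:54441943-54448745 (6803 bp, fold 15.3) and chr12:54419198-54424441 (5244 bp, fold 16.4), lie on either side of it, with shorter H3K4me1 intervals between. Joined over gaps of 1 kb, H3K4me1 formed a stretch of 35.4 kb from 54413332 to 54448745. Inside the 18378 bp H3K4me2 interval, H3K4me1 covered 44.4% of the sequence in 8 intervals.

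HOXA was marked in separate blocks. Its widest H3K4me2 interval, chr7:27205322-27216071, spanned 10750 bp (fold 17.6) and ranked 6 by width in the list. A second block at chr7:27136051-27143207 spanned 7157 bp (fold 14.4, width rank 40). The next widest interval, chr7:27201371-27205225, spanned 3855 bp (fold 11.8) and lay in the same joined stretch as the widest. The highest score belonged to chr7:27187701-27191157, with a fold of 17.2 and a −log10 q of 57.3. The longest joined stretch ran over 21.5 kb from 27198293 to 27219771, where H3K4me1 covered 26.8% of the sequence. H3K4me1 intervals were narrower, the widest being 2973 bp at chr7:27165237-27168209 (fold 9.24), then 2637 bp at chr7:27173609-27176245 (fold 11.5, the highest-scoring of the cluster) and 2508 bp at chr7:27198153-27200660 (fold 10.9).

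HOXD had blocks of intermediate size. Its widest H3K4me2 interval, chr2:176994609-176999437, spanned 4829 bp (fold 13.5), followed by chr2:177051874-177055565 with 3692 bp (fold 16.4) and chr2:177038215-177041052 with 2838 bp (fold 10.0). The highest-scoring interval, chr2:176949422-176951403, had a fold of 20.1 and a −log10 q of 56.7 and crossed the low-coordinate edge of the window, on the side of HOXD13. The widest H3K4me1 intervals were chr2:177039941-177042872 (2932 bp, fold 10.5), chr2:176976644-176979095 (2452 bp, fold 12.6, the highest-scoring of the cluster) and chr2:176999077-177000542 (1466 bp, fold 6.98). All 3 overlapped H3K4me2.

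HOXB had no H3K4me2 interval of 4 kb or more. Its widest H3K4me2 interval, chr17:46687176-46688984, was 1809 bp (fold 15.7), followed by chr17:46662340-46664087 with 1748 bp (fold 12.1, the highest-scoring of the cluster) and chr17:46702153-46703674 with 1522 bp (fold 9.92). Its widest and highest-scoring H3K4me1 interval was 706 bp, at chr17:46687682-46688387 (fold 6.45). The next widest were chr17:46802517-46803198 (682 bp, fold 4.08) and chr17:46702313-46702829 (517 bp, fold 4.99). HOXB held 13.3 H3K4me2 intervals per 100 kb against 28.8 to 31.5 in the other clusters. The 210 kb window of HOXB includes bare stretches of 53.05, 23.4 and 20.6 kb, which lower its density and coverage. The median width of its H3K4me2 intervals, 384.5 bp, was above that of HOXA (349 bp) and below those of HOXD (495.5 bp) and HOXC (1030 bp). Its widest was narrower than the widest of each other cluster.

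Each cluster also had a longest stretch without an interval of any list. In HOXB it was 53.05 kb, from 46749465 to 46802516, on the side of HOXB13, and a further bare stretch of 23.4 kb lay next to it. In HOXD it was 12.6 kb (177024647 to 177037237), in HOXA 9.79 kb (27120001 to 27129794, at the low-coordinate edge beside HOXA2) and in HOXC 9.02 kb (54357406 to 54366427). Intervals of at least 1 list covered 75.25% of HOXC, 54.9% of HOXA, 39.7% of HOXD and 10.8% of HOXB.

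Wide H3K4me2 intervals were frequent. Of the 137 intervals in the clusters, 8 (5.84%) were at least 4 kb wide, 5 in HOXC, 2 in HOXA and 1 in HOXD, against 0.646% of the list. For H3K4me1, 5 of 132 (3.79%) were that wide, all in HOXC, against 1.30% of the list. The median width was closer to that of the list, at 503 bp for H3K4me2 against 411 bp and 453 bp for H3K4me1 against 416 bp.

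The 2 marks shared much of their sequence in HOXC and less elsewhere. H3K4me1 lay on 69.6% of the H3K4me2 sequence in HOXC, 39.1% in HOXD, 37.2% in HOXA and 29.7% in HOXB, against 46.0% over the genome. Counted by interval, 93 of 137 H3K4me2 intervals (67.9%, 59.7 to 75.1%) overlapped H3K4me1, where 63.1% of the whole list did. These 95% Wilson intervals cover counting error only, and neighbouring intervals are not independent. The share was 35 of 36 in HOXC, 30 of 41 in HOXA, 17 of 32 in HOXD and 11 of 28 in HOXB. In the other direction, 103 of 132 H3K4me1 intervals (78.0%, 70.2 to 84.3%) overlapped H3K4me2, where 47.4% of the list did. This share lay between 70% and 82.6% in each of the 4 clusters, so that H3K4me1 without H3K4me2 was less frequent than in the list: 29 intervals of 132.

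By strength, the marks of the clusters ranked above the middle of their lists and LSD1 below it. A score percentile of 50 is the middle of a list. The median percentile was 60.5 for H3K4me2 and 56.8 for H3K4me1, but 35.7 for LSD1 with DMSO and 38.4 for LSD1 with inhibitor. Among the clusters, HOXC had the highest medians for both marks, 70.5 and 79.7. HOXA had the lowest median for H3K4me2, 43.5, with 60.7 in HOXB and 62.7 in HOXD. H3K4me2 intervals of at least 1 kb were 12 of 41 in HOXA, 5 of 28 in HOXB, 18 of 36 in HOXC and 13 of 32 in HOXD. The medians did not follow these shares. For H3K4me1, HOXB had the lowest median, 32.2. For LSD1 with DMSO the medians were 49.9 in HOXA, 23.9 in HOXB, 35.7 in HOXC and 45.7 in HOXD, and with inhibitor 23.1, 26.2, 35.6 and 45.2.

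**Figure D3:**
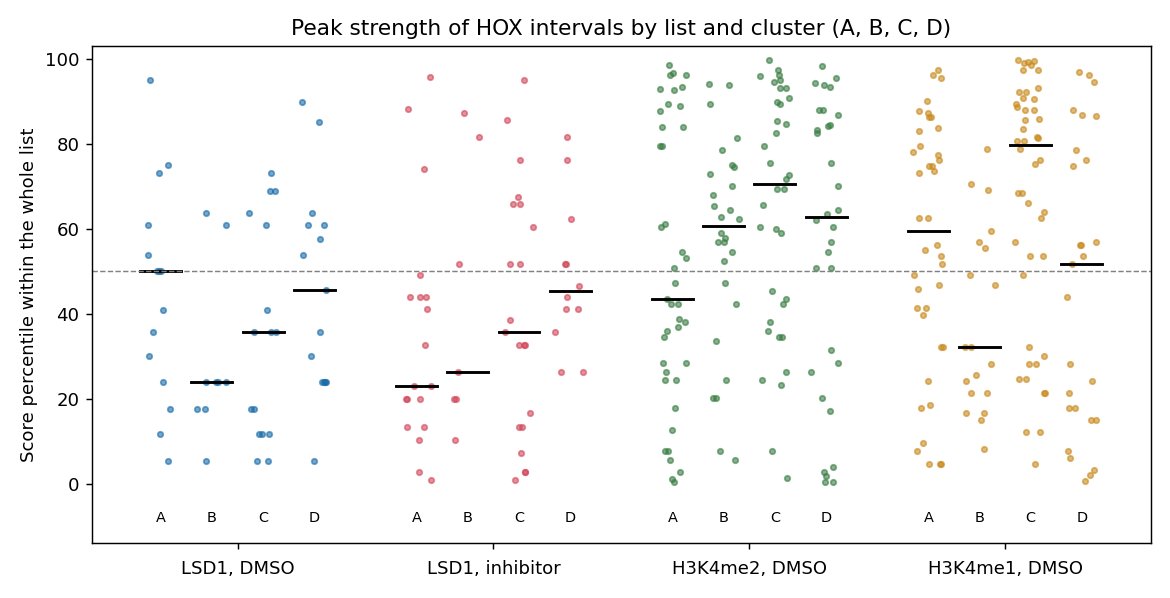
Score percentile within the whole list for every interval in the clusters, by list and by cluster (A to D for HOXA to HOXD); bars mark medians and the dashed line the middle of the list. LSD1 medians lie at or below the line in every cluster, and the H3K4me1 median of HOXC is the highest at 79.7.

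No LSD1 peak in the clusters ranked above 2171 by score with DMSO or above 2126 with inhibitor. Fold enrichment ran from 3.01 to 5.16 with DMSO (median 3.36, list median 3.61) and from 2.87 to 6.36 with inhibitor (median 3.62, list median 3.91). A −log10 q of 2 or more was reached by 19 of 55 peaks with DMSO (34.5%, against 48.0% of the list) and by 39 of 59 with inhibitor (66.1%, against 75.3%). The strongest DMSO peak, chr7:27181505-27183634 in HOXA, was 2130 bp wide with a fold of 5.16 and a −log10 q of 5.99. With inhibitor, the same place carried the strongest peak of that list in the clusters, chr7:27182286-27183644, with a fold of 4.70 and a −log10 q of 8.91.

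The other leading DMSO peaks of HOXA were chr7:27190210-27190684 (fold 3.69) and chr7:27235788-27236096 (fold 3.91), and the other leading inhibitor peaks were chr7:27190516-27191169 (fold 4.85) and chr7:27173003-27174077 (fold 4.79). All of these overlapped H3K4me2 and a peak of the other LSD1 list. In HOXD the 3 highest-scoring DMSO peaks were chr2:176993593-176994488 (fold 4.88), chr2:176962152-176962517 (fold 4.59) and chr2:176976203-176976875 (fold 3.93). The inhibitor peaks were chr2:177021674-177022718 (fold 5.32), chr2:176992780-176994505 (fold 4.68) and chr2:176973178-176973464 (fold 4.09). These 6 peaks of HOXD also lay on H3K4me2 and were each found in both lists.

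In HOXC and HOXB some of the highest-scoring peaks were not overlapped by any peak of the other LSD1 list. The 3 leading DMSO peaks of HOXC, chr12:54442672-54443685 (fold 4.24), chr12:54332635-54334207 (fold 3.67) and chr12:54445569-54447297 (fold 3.91), lay on both marks and were shared with the inhibitor list. The leading inhibitor peaks of HOXC were narrow. The first, chr12:54410453-54410678 (226 bp), had a fold of 6.36 and rank 2438, at a place where the DMSO peaks reached a fold of 3.20. The others, chr12:54431564-54431764 (201 bp, fold 5.16) and chr12:54378696-54378847 (152 bp, fold 4.61), had no DMSO peak, and the latter lay on neither mark. In HOXB the leading inhibitor peaks chr17:46671281-46671500 (fold 5.40) and chr17:46713945-46714152 (fold 4.09, on neither mark) were not in the DMSO list, and the third, chr17:46703202-46703427 (fold 3.81), was. Of the leading DMSO peaks of HOXB, chr17:46725666-46725838 (fold 3.70) was not in the inhibitor list and lay on neither mark, while chr17:46702964-46703542 (fold 3.64) and chr17:46724660-46725044 (fold 3.28) were in both lists.

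LSD1 in the clusters lay almost entirely on H3K4me2. With DMSO, 49 of 55 peaks (89.1%, 78.2 to 94.9%) overlapped it, where 50.4% of the list did. With inhibitor, 56 of 59 (94.9%, 86.1 to 98.3%) overlapped it, where 52.9% of the list did. By cluster the counts with DMSO were 16 of 16 in HOXC, 14 of 15 in HOXA, 13 of 15 in HOXD and 6 of 9 in HOXB, and with inhibitor 20 of 21, 19 of 19, 12 of 12 and 5 of 7. H3K4me2 also covered more of the clusters (33.25%) than of the genome (1.94%), and its part in this share was not tested. Of the LSD1 sequence, 87.1% with DMSO and 85.9% with inhibitor was under H3K4me2.

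H3K4me1 was present at fewer LSD1 peaks. With DMSO, 35 of 55 (63.6%, 50.4 to 75.1%) overlapped it, where 41.5% of the list did, and with inhibitor 28 of 59 (47.5%, 35.3 to 60.0%), where 39.5% of the list did. In HOXC the counts were 15 of 16 and 13 of 21, in HOXA 9 of 15 and 9 of 19, in HOXB 5 of 9 and 2 of 7, and in HOXD 6 of 15 and 4 of 12. No LSD1 peak in the clusters lay on H3K4me1 without H3K4me2. Counts of 0 of 55 and 0 of 59 peaks allow shares of up to 5.45% and 5.08%, taken as 3 counts of the total, or 6.53% and 6.11% as upper Wilson limits. The lists held 9.84% and 9.49%. The counts of 0 are not separate from the high overlap with H3K4me2, which left few peaks where H3K4me1 could lie alone. Neither mark was found at 6 of 55 peaks with DMSO and 3 of 59 with inhibitor; 3 of the 6 and 2 of the 3 were in HOXB.

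**Figure D4:**
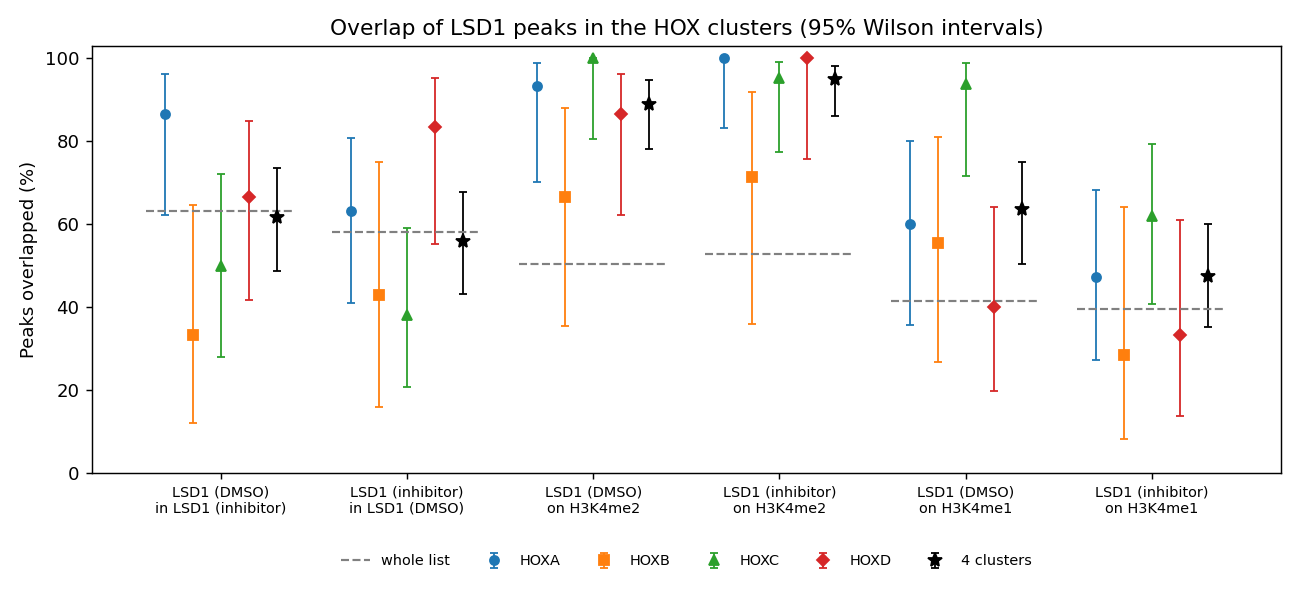
Percent of LSD1 peaks in the clusters overlapped by the other LSD1 list, by H3K4me2 and by H3K4me1, for each cluster and for the 4 together, with 95% Wilson intervals; dashed lines are the whole lists. The shares on H3K4me2 for the 4 clusters together, 89.1% and 94.9%, lie above the list values of 50.4% and 52.9%, while the shares found in the other LSD1 list lie near theirs.

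From the side of the marks, LSD1 overlapped 57 of 137 H3K4me2 intervals with DMSO (41.6%, 33.7 to 49.98%) where 35.4% of the list was overlapped, and 58 of 137 with inhibitor (42.3%, 34.4 to 50.7%) where 40.8% was. These shares are near those of the lists. Both LSD1 lists overlapped 45 of the 137 intervals (32.9%), where 26.5% of the whole list was overlapped by both. DMSO alone overlapped 12 (8.76%, list 8.95%), inhibitor alone 13 (9.49%, list 14.4%) and neither 67 (48.9%, list 50.2%). Of the H3K4me1 intervals, LSD1 overlapped 38 of 132 with DMSO (28.8%, 21.7 to 37.0%; list 23.7%) and 29 of 132 with inhibitor (22.0%, 15.7 to 29.8%; list 23.8%). HOXB had the largest gap between the conditions, 8 of 19 H3K4me1 intervals with DMSO and 2 of 19 with inhibitor. The 8 intervals were reached by 5 DMSO peaks and the 2 by 2 inhibitor peaks, so they are not independent. The gap was not tested. LSD1 covered 20.1% of the H3K4me2 sequence with DMSO and 20.3% with inhibitor, against 21.5% and 23.2% over the genome.

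The widest H3K4me2 interval of HOXC carried little LSD1 with DMSO. It held 1 DMSO peak, which covered 0.833% of its length, and 5 inhibitor peaks, which covered 13.5%. No 2 of these overlapped, and their folds were 3.11 with DMSO and 3.09 to 3.73 with inhibitor. All 8 intervals of 4 kb or more were overlapped by LSD1 in both conditions, where 86.5% with DMSO and 88.4% with inhibitor were outside the clusters. The counting interval of 67.6 to 100% included both outside values. Among intervals of 0.5 to 1 kb, 7 of 22 were overlapped with DMSO and 5 of 22 (22.7%, 10.1 to 43.4%) with inhibitor, where 43.1% and 51.8% of intervals of that width outside the clusters were. Below 0.5 kb the shares were 14 of 67 (20.9%) and 10 of 67 (14.9%, 8.31 to 25.3%), against 22.9% and 25.4% outside. Between 1 and 2 kb they were 10 of 15 (66.7%) and 13 of 15 (86.7%, 62.1 to 96.3%), against 53.5% and 63.96%. Between 2 and 4 kb they were 18 of 25 (72.0%) and 22 of 25 (88.0%), against 68.8% and 77.0%. With inhibitor, the counting intervals of both classes below 1 kb lay under the outside values, and those of 1 to 2 kb and of 2 to 4 kb (70.04 to 95.8%) included them. With DMSO, the intervals below 1 kb (12.9 to 32.1% and 16.4 to 52.7%) included the outside values. The width classes were chosen after the data were seen.

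**Figure D5:**
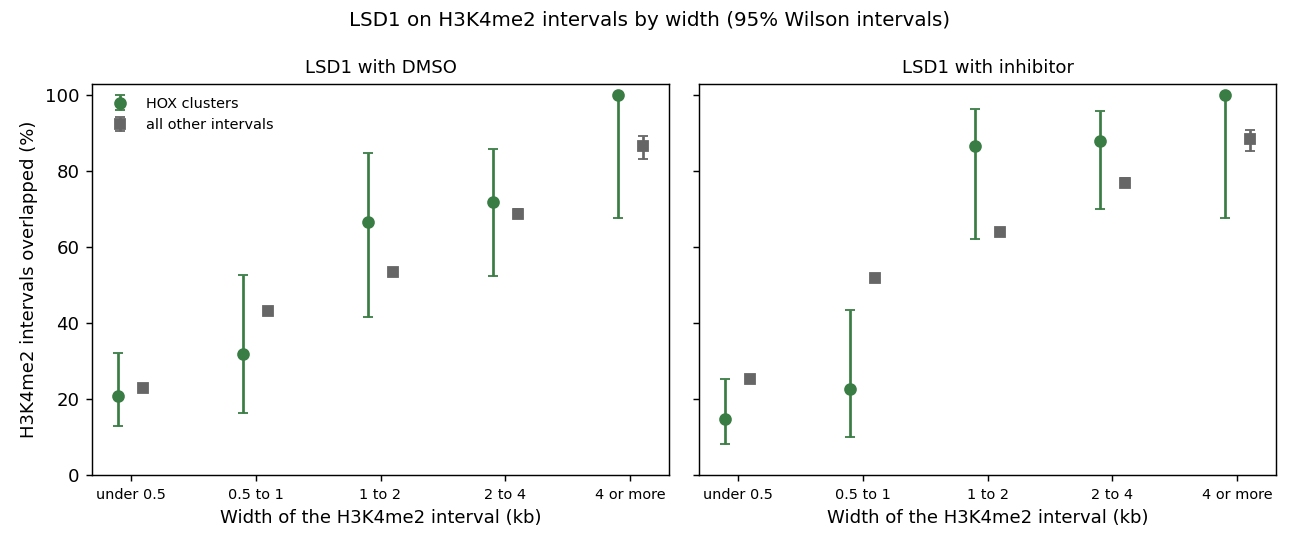
Percent of H3K4me2 intervals overlapped by LSD1 with DMSO (left) and with inhibitor (right) by width of the interval in kb, in the HOX clusters (green circles) and outside them (grey squares), with 95% Wilson intervals. Overlap rises with width in both sets, and below 1 kb the inhibitor values of the clusters, 14.9% and 22.7%, are below 25.4% and 51.8% outside.

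The comparison of inhibitor with DMSO asked which LSD1 places were found in both libraries. Of the DMSO peaks, 34 of 55 (61.8%, 48.6 to 73.5%) were overlapped by an inhibitor peak, where 63.2% of the list were. Of the inhibitor peaks, 33 of 59 (55.9%, 43.3 to 67.9%) were overlapped by a DMSO peak, where 58.1% of the list were. Both values are close to those of the lists. The share differed between clusters, with 13 of 15 DMSO peaks found again in HOXA, 10 of 15 in HOXD, 8 of 16 in HOXC and 3 of 9 in HOXB. In the other direction it was 12 of 19 in HOXA, 10 of 12 in HOXD, 8 of 21 in HOXC and 3 of 7 in HOXB.

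When the peaks of both lists were merged, 79 places resulted, 32 with LSD1 in both conditions, 21 with DMSO alone and 26 with inhibitor alone. All 32 places found in both lay on H3K4me2, and 21 of them on both marks. The whole lists were not merged in this way, so these counts have no list value beside them and are not shown to be particular to the clusters. The deposited fold was higher with inhibitor at 24 of the 32, with medians of 3.80 against 3.58, but the score percentile within the list was higher with inhibitor at only 10 of the 32. The inhibitor list as a whole also has the higher median fold (3.91 against 3.61). In HOXC, 13 places were found with inhibitor alone and 8 with DMSO alone; in HOXD, 2 and 5.

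By their medians, peaks found in 1 list were weaker and narrower than shared ones. With DMSO, the 21 unshared peaks had a median percentile of 17.6 and a median width of 555 bp, against 51.9 and 741 bp for the 34 shared. With inhibitor, the 26 unshared peaks had 21.4 and 308.5 bp, against 43.9 and 722 bp for the 33 shared. H3K4me2 was present at 15 of 21 and 23 of 26 unshared peaks, and at all 34 and all 33 shared peaks. The matching shares of shared and unshared peaks over the whole lists were not determined. Of the unshared peaks, 6 with DMSO and 6 with inhibitor lay within 1 kb of a peak of the other list.

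The inhibitor list held the larger share of LSD1 peaks on H3K4me2 without H3K4me1 in the clusters. Such peaks made up 14 of 55 with DMSO (25.5%, 15.8 to 38.3%), where 18.7% of the list did, and 28 of 59 with inhibitor (47.5%, 35.3 to 60.0%), where 22.9% of the list did. The difference was 22.0 points, and 4.21 points over the whole lists. It compares 2 single libraries with many places in common and was not tested. It was 19.3 points in HOXA, 31.75 in HOXB and 27.1 in HOXC, and in HOXD 8 of 12 inhibitor peaks stood against 7 of 15. With a reciprocal overlap of 50% of both intervals in place of 1 bp, the difference reversed to −15.4 points, and by interval centres it was 8.91 points. It was 5.51 points with the highest-scoring 50% of each list and 9.31 points when LSD1 peaks below a −log10 q of 2 were left out. This comparison was chosen after the data were seen, and its size depended on the definition of overlap and on the weaker peaks. All peaks were set against the marks of the DMSO cells; the marks in inhibitor-treated cells were not analysed here.

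The local background of the clusters was above the list median for H3K4me2 and at or above it for H3K4me1. The background at which a histone interval's fold and p-value fit together was 1.22 to 1.35 times the list median for H3K4me2 and 1.00 to 1.21 times for H3K4me1 in the 4 clusters. For LSD1 the same measure equalled the list median in every cluster and was not used. The part of local background in the coverage was not tested.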

How the data were processed

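The peak lists analysed were those of LSD1 (DMSO and inhibitor) and of H3K4me2 and H3K4me1 (both DMSO), each from 1 ChIP-seq library. The submitters' processing notes name BWA, Picard and MACS2 2.0 and the build hg19. Control library, duplicate handling and depth were not given in the sources used here. Per peak, the deposited score is 10 times the −log10 q of a peak, the deposited fold is a ratio over the caller's background, and −log10 p and −log10 q stand as the authors gave them. These values were used for description, ranking and filtering inside a list. The LSD1 lists reach down to a −log10 q of 1.00 and 1.01 and the histone lists to 2.02 and 2.01, and the LSD1 lists have a broad and the histone lists a narrow layout, which affects widths and overlaps between them.

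Histone rows with the same start and end were reduced to 1 interval (178083 rows to 81619 for H3K4me2, 175135 to 94689 for H3K4me1), with the highest score, fold and q. An overlap is at least 1 bp. Shares carry 95% Wilson intervals, for counting error only. Named intervals were the 3 highest-scoring LSD1 peaks of each list and cluster, the 3 widest and the highest-scoring of each mark, and the longest bare stretch. The members and lists were chosen with earlier results of these data known. Chosen after the values were seen were the 20% tile level, the width classes, joining over 1 kb, the merged LSD1 places, the CG ratio of promoters and the comparison of peaks on H3K4me2 without H3K4me1. Alternatives were windows extended by 10 kb, intervals wholly inside, the highest-scoring 50% of each list, a −log10 q of at least 2 for LSD1, LSD1 lists of 45188 peaks, reciprocal overlap of 50%, centres, and leaving out each cluster. Python 3.11.15, pandas 2.3.3, NumPy 2.4.6, SciPy 1.17.1 and matplotlib 3.10.9 were used. Overlap counting was tested on simulated data, where it found 400 overlaps among 1000 intervals, as did a count of all pairs.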

Additional observations from a re-analysis of the deposited data

How the results depend on the processing

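No paired analysis was possible because there was a single library per condition. Of 198 alternative values, which leave out the excess with inhibitor of peaks on H3K4me2 without H3K4me1, 145 stayed within 1.5 times the reported count or coverage or within the counting interval of the reported share; these included every value with windows extended by 10 kb, intervals wholly inside, LSD1 lists of equal length, and without HOXA or without HOXD. The cause of the other 53 changes was not tested, apart from settings that keep fewer peaks or demand more overlap by construction. Depth is unknown, so a peak missing from a list is not shown to be absent.

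Without HOXC, H3K4me1 coverage was 13.1% and 57.4% of H3K4me2 intervals overlapped H3K4me1; without HOXB the latter was 75.2%. With the highest-scoring 50%, LSD1 coverage was 3.33% with DMSO and 2.86% with inhibitor. LSD1 intervals then numbered 5, 2, 5 and 7 with DMSO and 4, 3, 9 and 5 with inhibitor in HOXA to HOXD, H3K4me2 19 in HOXA, and H3K4me1 25 in HOXA, 7 in HOXB and 14 in HOXD. LSD1 with DMSO and with inhibitor each overlapped 25.9% of H3K4me2 intervals, and 12.3% and 11.1% of H3K4me1 intervals. With a −log10 q of at least 2, DMSO coverage was 3.33%, and the counts were 5, 2, 5 and 7 with DMSO and 9 in HOXA and 4 in HOXB with inhibitor. The sharing of LSD1 was 15 of 19 DMSO peaks (78.9%) and 15 of 39 inhibitor peaks (38.5%). H3K4me2 intervals were then overlapped in 17.5% and 33.6% of cases and H3K4me1 intervals by DMSO LSD1 in 8.33%. Over the whole lists this cut kept 48.0% of DMSO and 75.3% of inhibitor peaks. Overlap shares of the whole lists were not determined under this cut, the highest-scoring 50%, reciprocal overlap or centres.

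With a reciprocal overlap of 50%, sharing of LSD1 was 25.5% and 23.7%, LSD1 on H3K4me2 29.1% and 16.9%, on H3K4me1 3.64% and 6.78% (DMSO, inhibitor). H3K4me2 intervals with LSD1 were 11.7% and 7.30%, H3K4me1 intervals with LSD1 1.52% and 3.03%, H3K4me2 in H3K4me1 16.1% and the reverse 16.7%. The excess with inhibitor of peaks on H3K4me2 without H3K4me1, 22.0 points as reported, reversed to −15.4 points; it was 5.51 with the highest-scoring 50%, 9.31 with a −log10 q of at least 2 and 8.91 by centres. By centres, sharing was 38.2% and 37.3%, DMSO LSD1 on H3K4me1 36.4%, H3K4me2 with LSD1 21.2% and 15.3%, H3K4me1 with LSD1 9.85% and 6.82%, and H3K4me2 in H3K4me1 50.4%.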
